A study of Homo sapiens with 5 samples.

Results

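The genes described here encode 34 proteins of the lysosome: 29 hydrolases and lipid-binding proteins of its lumen, 4 proteins of its membrane, and TFEB, a transcription factor of lysosomal genes. They were chosen by name, with no measured value in the rule but with earlier results of these data known. All 34 were among the 10626 genes of the table and passed the filter on low counts. RNA sequencing compared a METAP1 knockout line of HAP1 cells (2 libraries, which the table numbers 2 and 3) with the wild type (parental) HAP1 line (3 libraries). HAP1 cells are near-haploid and descend from a human chronic myeloid leukaemia line. METAP1 encodes methionine aminopeptidase 1, which trims the first methionine off new proteins. The knockout was made with CRISPR/Cas9 and carries a frameshifting insertion of 179 bp in exon 4 of METAP1. Both lines were bought from the same supplier and grown in the same serum-containing medium. The labels describe a single edited line, so genotype and clone cannot be told apart. They call the replicates biological without saying whether cultures were grown separately. The p-values thus set the group difference against the spread between these libraries, which may be technical.

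Lysosomes are acidic compartments in which cells break down proteins, glycans, lipids and nucleic acids brought in by endocytosis or autophagy. Most lumenal hydrolases are tagged with mannose 6-phosphate in the Golgi and carried to the lysosome by receptors, and inherited loss of single enzymes causes storage diseases. TFEB and its relatives bind E-box sequences in the promoters of many lysosomal genes, and the kinase complex mTORC1 on the lysosomal surface keeps TFEB in the cytoplasm when nutrients are plentiful.

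The table held 12570051 and 13061232 reads for the knockout libraries, against 13111303, 16519292 and 14722649 for the wild type libraries. METAP1 itself had 13.1 and 16.1 RPKM in the knockout libraries, against 40.1, 41.5 and 41.7 RPKM in the wild type libraries, so the labels and the targeted gene go together (log2 fold change -1.49, SE 0.11). The growth protocol also names METAP1D once beside the METAP1 transcript. METAP1D had 5.61 and 4.93 RPKM in the knockout libraries, against 5.32, 5.05 and 4.93 RPKM in the wild type libraries, and was not called (log2 fold change 0.05, SE 0.13). RPKM here are read counts scaled to gene length and to library size, with a factor per library (TMM) that makes libraries comparable. A gene is said to have risen or fallen where edgeR's quasi-likelihood test gave an adjusted p under 0.05 (Benjamini-Hochberg, over all 10620 genes tested), and every adjusted p below comes from that test. Fold changes are knockout over wild type. Of 12 haematopoietic markers 2 were measured, GATA2 and KIT, and PTPRC, CD33, SPI1 and GATA1 are not analysed here.

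In the METAP1 knockout, 5 of the 34 lysosomal genes rose and 4 fell, and 25 were not called. The risers were PSAP, TPP1, SMPD1, CTSB and LAMP2, and the fallers GAA, GLA, DPP7 and PPT1. The 9 called genes are 26.5% of the list, beside 29.7% of all genes tested, of which 14.9% rose and 14.8% fell, so the share was near that of the transcriptome. The median log2 fold change of the 34 genes was 0.03, beside 0.01 for all genes tested. Their middle range, between the lower and upper quartile, lay between -0.23 and 0.30, beside -0.25 and 0.29 for all genes. Log2 fold changes were positive for 18 genes and negative for 16, and only GAA differed by at least 2-fold. Higher genes numbered 3 without wild type replicate 3 or knockout library 2 and 2 without knockout library 3, and lower genes 2 without knockout library 2 and 1 without library 3. Calls over all genes tested also moved with the library left out, as given in the last section. The knockout and wild type libraries did not overlap for 22 of the 34 genes (64.7%), beside 59.3% of all genes tested. The authors' deposited table also called 9 of the 34 genes, the same 9, beside 31.6% of all its genes, and all 34 had the same sign in it.

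**Figure D1:**
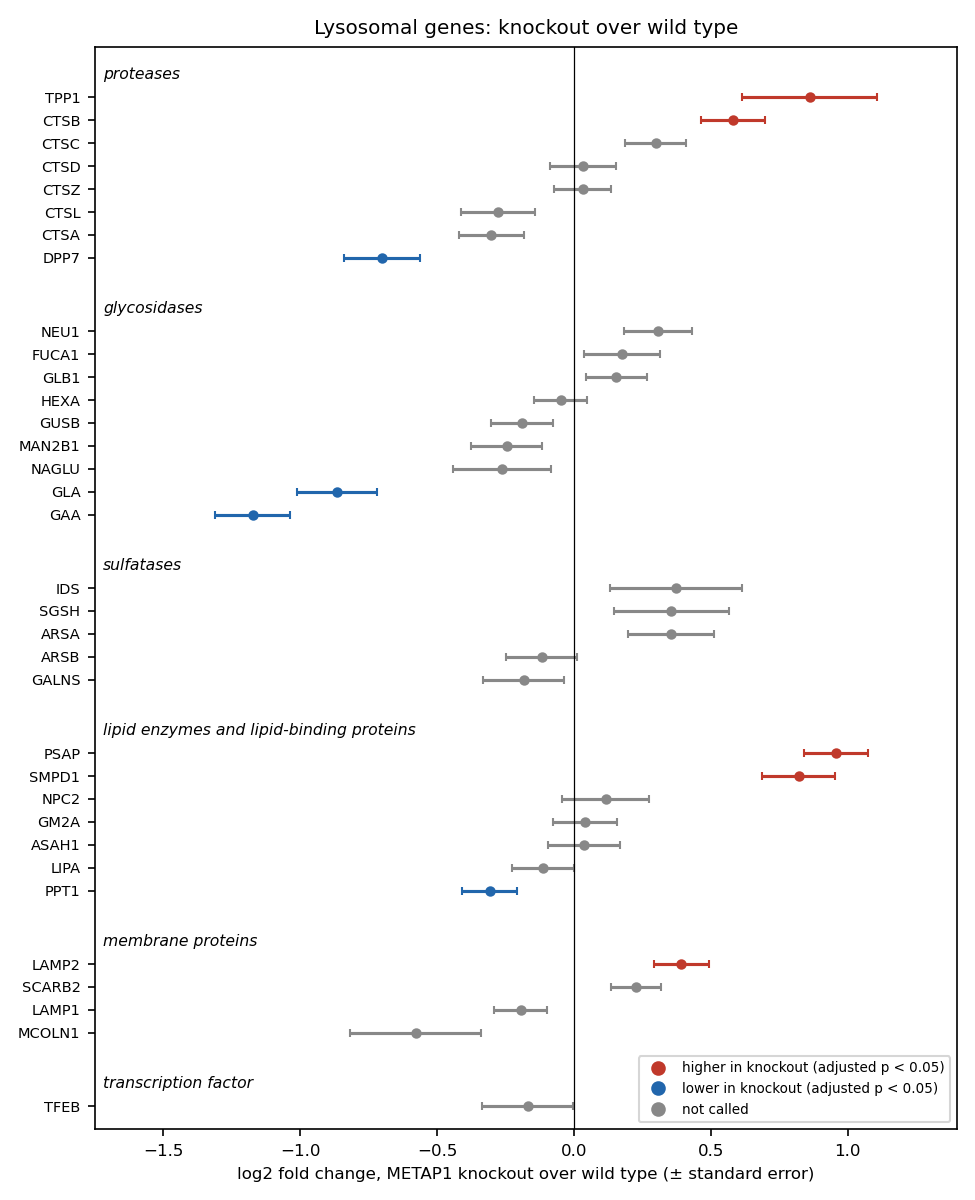
Log2 fold change (METAP1 knockout over wild type, horizontal axis, with its standard error) of the 34 lysosomal genes, grouped by the role of their protein. Red points are the 5 genes that rose, blue points the 4 that fell and grey points the 25 not called, and every group of more than 1 gene has points on both sides of 0.

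As a whole, the 34 genes took 0.227 and 0.239% of the table's reads in the knockout libraries, against 0.190, 0.213 and 0.204% in the wild type libraries. PSAP alone made up 23.0 and 21.1% of these reads in the knockout libraries and 11.8, 13.5 and 13.4% in the wild type libraries. Without PSAP the share was 0.175 and 0.188% in the knockout libraries, against 0.167, 0.184 and 0.176% in the wild type libraries, and the groups then overlapped. In this bulk RNA, a larger number of cells with a transcript and more transcript per cell cannot be told apart.

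Among the proteins that handle lipids, PSAP and SMPD1 rose and PPT1 fell. PSAP (ENSG00000197746, chr10:71816298-71851375, reverse strand, GRCh38) encodes prosaposin, which is cut into the saposins, small proteins that present sphingolipids to their hydrolases. It had 164 and 157 RPKM in the knockout libraries, against 71.0, 90.0 and 87.0 RPKM in the wild type libraries. Both knockout libraries thus stood well above all wild type libraries, of which replicate 1 was lowest. The log2 fold change was 0.96 (SE 0.12, adjusted p = 0.000825), a ratio of 1.94. SMPD1 (ENSG00000166311, chr11:6390431-6394998, forward strand) encodes acid sphingomyelinase, which splits sphingomyelin into ceramide and phosphocholine. Its level was 7.08 and 7.18 RPKM in the knockout libraries, against 4.20, 3.87 and 4.04 RPKM in the wild type libraries, with little spread in either group. It rose by 0.82 on the log2 scale (SE 0.13, adjusted p = 0.00293). PPT1 (ENSG00000131238, chr1:40071461-40097727, reverse strand) encodes palmitoyl-protein thioesterase 1, which takes fatty acids off proteins. It had 40.1 and 40.3 RPKM in the knockout libraries, against 45.8, 50.5 and 53.0 RPKM in the wild type libraries. The fall was small, at -0.31 (SE 0.10, adjusted p = 0.0465). It was not called without knockout library 2 (-0.30) or 3 (-0.31), without wild type replicate 2 (-0.30) or 3 (-0.26), with library totals in place of TMM (-0.29) or with the trend with gene length removed (-0.24). PPT1 shares 1189 of its 5088 exon bases with CAP1 on the opposite strand. CAP1 averaged 109 RPKM in the knockout and 101 RPKM in the wild type and was not called (log2 fold change 0.10, SE 0.11). Whether reads were counted by strand is not stated in the sources used here, so whether the pair shared reads cannot be told.

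The other 4 genes of lipid handling were not called. They were NPC2, a cholesterol-binding protein of the lumen (log2 fold change 0.12, SE 0.16), GM2A, the cofactor that presents ganglioside GM2 (0.04, SE 0.12), the acid ceramidase gene ASAH1 (0.04, SE 0.13) and the acid lipase gene LIPA (-0.11, SE 0.11). NPC2, GM2A and ASAH1 changed sign without wild type replicate 1, where their values were -0.036, -0.030 and -0.085, and ASAH1 also without knockout library 3 (-0.011).

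**Figure D2:**
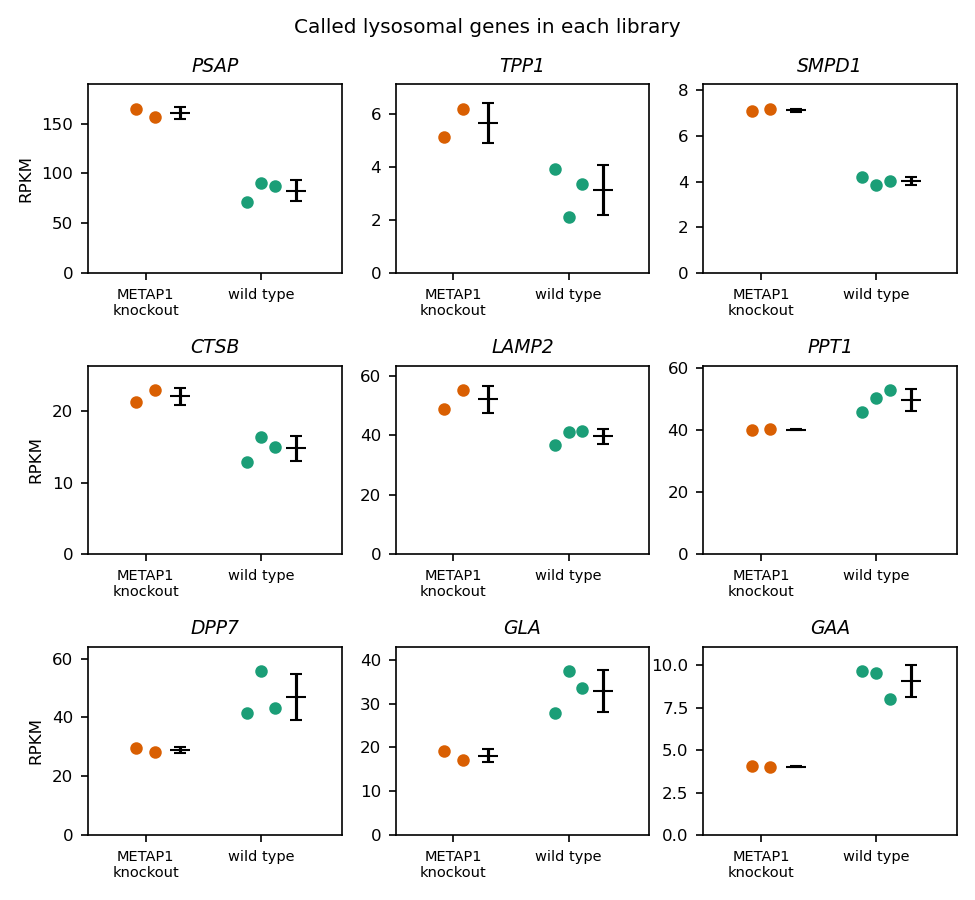
RPKM (linear axes from 0) of the 9 called lysosomal genes in each library, with the 2 METAP1 knockout libraries on the left and the 3 wild type libraries on the right of each panel, and the mean and SD of each group as a bar beside its points. In each panel the 2 groups do not overlap, with the knockout above the wild type for PSAP, TPP1, SMPD1, CTSB and LAMP2 and below it for PPT1, DPP7, GLA and GAA.

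Of the 9 glycosidase genes, GAA and GLA fell and the other 7 were not called. GAA (ENSG00000171298, chr17:80101556-80119879, forward strand) encodes acid alpha-glucosidase, which degrades glycogen in lysosomes. It had 4.05 and 4.00 RPKM in the knockout libraries, against 9.67, 9.58 and 8.001 RPKM in the wild type libraries. The knockout libraries were nearly equal and lay far below the lowest wild type library. This was the largest change among the 34 genes (log2 fold change -1.17, SE 0.14, adjusted p = 0.000717), a ratio of 0.443. GLA (ENSG00000102393, chrX:101397803-101408012, reverse strand) encodes alpha-galactosidase A, which removes terminal galactose from glycosphingolipids. Its values were 19.1 and 17.1 RPKM in the knockout libraries, against 27.9, 37.4 and 33.6 RPKM in the wild type libraries, and the wild type spread was wider. It fell by 0.86 on the log2 scale (SE 0.15, adjusted p = 0.00363), and without knockout library 3 the value was -0.79 with adjusted p = 0.0514. The uncalled members ran from 0.31 to -0.26: the sialidase gene NEU1 (0.31, SE 0.12), the fucosidase gene FUCA1 (0.18, SE 0.14), the beta-galactosidase gene GLB1 (0.16, SE 0.11), HEXA, the alpha subunit of beta-hexosaminidase (-0.05, SE 0.10), the beta-glucuronidase gene GUSB (-0.19, SE 0.11), the alpha-mannosidase gene MAN2B1 (-0.25, SE 0.13) and the heparan sulfate glucosaminidase gene NAGLU (-0.26, SE 0.18). NEU1 passed the threshold without wild type replicate 2 (0.39), and HEXA changed sign without knockout library 2 (0.03). GUSB has pseudogenes of similar sequence, so its count is less certain.

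Among the 8 protease genes, CTSB and TPP1 rose, DPP7 fell and 5 were not called. CTSB (ENSG00000164733, chromosome 8) encodes the cysteine protease cathepsin B. It had 21.3 and 23.0 RPKM in the knockout libraries, against 12.9, 16.4 and 15.1 RPKM in the wild type libraries (log2 fold change 0.58, SE 0.12, adjusted p = 0.00766). The groups were apart, and without knockout library 3 the value was 0.53 and not called. TPP1 (ENSG00000166340, chr11:6612763-6619485, reverse strand) encodes tripeptidyl peptidase 1, a serine protease that removes tripeptides from protein ends. It had 5.12 and 6.19 RPKM in the knockout libraries, against 3.93, 2.10 and 3.36 RPKM in the wild type libraries, a wide spread for a gene with only 162 to 381 reads per library. Its rise of 0.86 (SE 0.25, adjusted p = 0.0347) was not called without knockout library 2 (0.99) or 3 (0.72) or without wild type replicate 3 (0.92). DPP7 (ENSG00000176978, chr9:137110542-137115177, reverse strand) encodes dipeptidyl peptidase 7, which removes dipeptides. It had 29.5 and 28.2 RPKM in the knockout libraries, against 41.6, 55.8 and 43.3 RPKM in the wild type libraries, where replicate 2 was high. The fall was -0.70 (SE 0.14, adjusted p = 0.00752), and it missed the threshold without knockout library 2 (-0.73, adjusted p = 0.0635) or 3 (-0.67, adjusted p = 0.0755).

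The 5 uncalled protease genes were CTSC, the exopeptidase cathepsin C (log2 fold change 0.30, SE 0.11), CTSD, the main aspartic protease of lysosomes (0.03, SE 0.12), CTSZ, a carboxypeptidase (0.03, SE 0.10), CTSL, the endopeptidase cathepsin L (-0.28, SE 0.14), and CTSA (-0.30, SE 0.12). CTSZ was -0.015 without wild type replicate 1 and CTSD was -0.039 without wild type replicate 3. CTSL (-0.37) and CTSA (-0.34) passed the threshold without wild type replicate 1, and CTSA (-0.35) also with the trend with gene length removed. CTSA shares 200 of its 5856 exon bases with PLTP on the opposite strand, which rose (log2 fold change 0.48, SE 0.13, adjusted p = 0.0260). Reads in such overlaps cannot be assigned here, which also touches NPC2, GALNS, GLB1, SGSH and MCOLN1 among overlaps with measured genes. Further members overlap genes that were not measured. On the same strand, CTSD shares 1304 of its 3126 exon bases with AC068580.4, and IDS 1529 of 9292 with AC244197.3. TPP1, which rose, shares 756 of 6544 with AC091564.7. The counted gene models were 4959 bases long for CTSA, 2516 for CTSD, 10278 for IDS and 4656 for TPP1. They differ from the GENCODE 29 exons used for these overlaps, so shared bases need not lie in counted exons.

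None of the 5 sulfatase genes was called by edgeR, by DESeq2 or by limma-voom, and 0 had an unadjusted p under 0.05 in edgeR. They were IDS (log2 fold change 0.37, SE 0.24), SGSH (0.36, SE 0.21), ARSA (0.35, SE 0.16), ARSB (-0.12, SE 0.13) and GALNS (-0.18, SE 0.15). IDS and SGSH remove sulfate from heparan sulfate, ARSA from sulfatide, ARSB from dermatan sulfate and GALNS from keratan sulfate. IDS had 4.73 and 5.33 RPKM in the knockout libraries, against 5.22, 2.73 and 3.74 RPKM in the wild type libraries, and SGSH had 3.20 and 3.84 RPKM in the knockout libraries, against 3.59, 2.32 and 2.37 RPKM in the wild type libraries. Wild type replicate 1 was the high wild type library in both, and without it IDS (0.63, adjusted p = 0.0153) and SGSH (0.57, adjusted p = 0.0151) were called higher. IDS has a near-identical pseudogene, so its count is uncertain.

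Of the 4 membrane protein genes, LAMP2 rose. LAMP1 and LAMP2 encode the most abundant glycoproteins of the lysosomal membrane, and LAMP2 also serves chaperone-mediated autophagy. LAMP2 (ENSG00000005893, chrX:120427827-120469365, reverse strand) had 48.9 and 55.1 RPKM in the knockout libraries, against 36.7, 40.9 and 41.3 RPKM in the wild type libraries. The log2 fold change was 0.39 (SE 0.10, adjusted p = 0.0203). The call was lost without knockout library 2 (0.48) or 3 (0.30) and without wild type replicate 3 (0.42). LAMP1 had 16.3 and 18.3 RPKM in the knockout libraries, against 19.5, 20.0 and 19.9 RPKM in the wild type libraries, lower in both but not called (-0.19, SE 0.10, adjusted p = 0.154). SCARB2, which encodes the membrane protein LIMP-2, was at 0.23 (SE 0.09, adjusted p = 0.0928). MCOLN1, the calcium channel mucolipin 1, had 54 and 93 reads in the knockout libraries, against 121, 119 and 132 reads in the wild type libraries. That is 1.60 and 2.62 RPKM in the knockout libraries, against 3.47, 2.67 and 3.38 RPKM in the wild type libraries. Knockout library 3 lay next to wild type replicate 2, and the log2 fold change of -0.58 (SE 0.24, adjusted p = 0.0992) was not called. It was -0.27 without knockout library 2 and -0.98 without knockout library 3.

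TFEB had the lowest mean level of the 34 genes in both groups. It had 2.04 and 1.90 RPKM in the knockout libraries, against 2.37, 2.32 and 1.95 RPKM in the wild type libraries, and the groups overlapped (log2 fold change -0.17, SE 0.17, adjusted p = 0.466). Between 101 and 155 reads per library stood behind these values. Transcript level does not report where the TFEB protein sits in the cell.

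**Figure D3:**
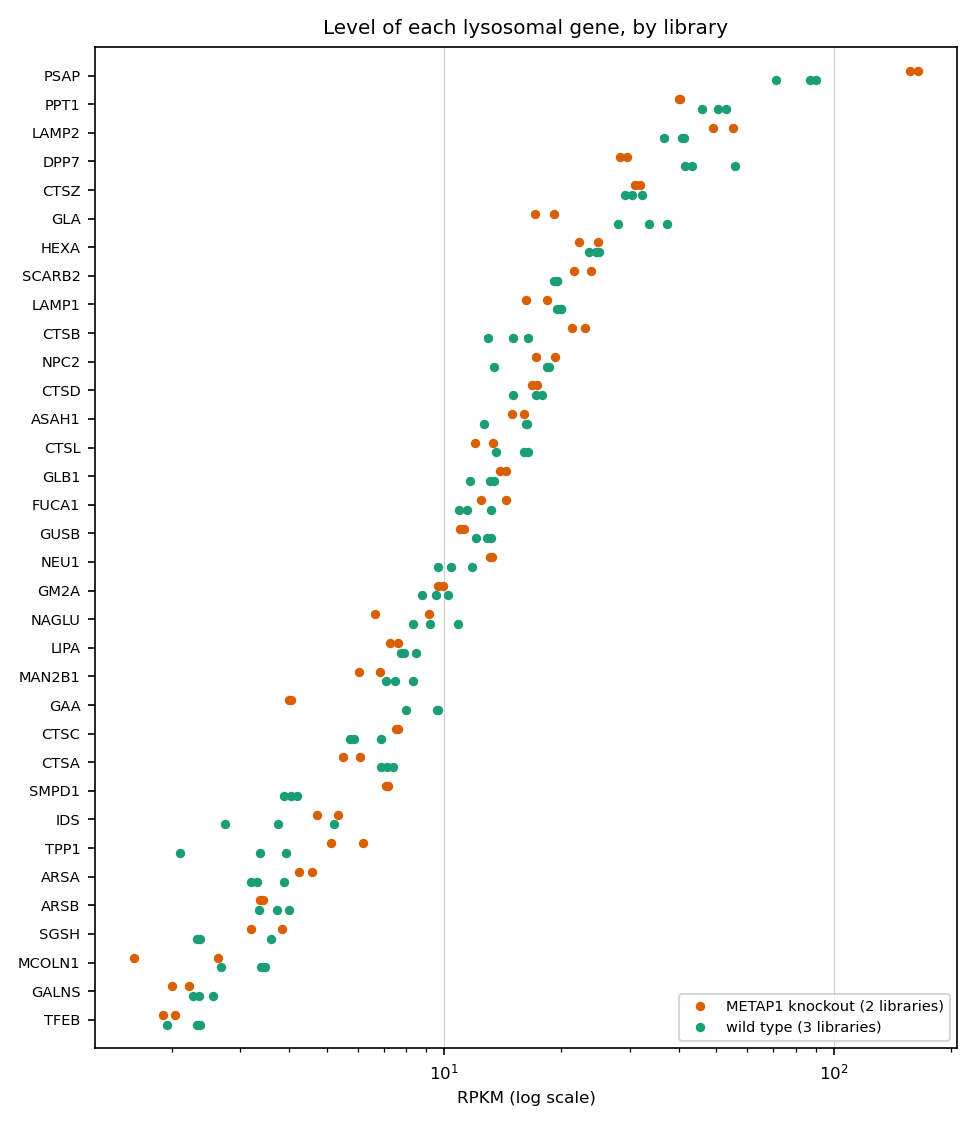
RPKM (logarithmic horizontal axis) of each of the 34 lysosomal genes in each library, ordered by the mean over the 5 libraries, with the METAP1 knockout libraries above the wild type libraries in each row. PSAP stands alone at the top with 157 and 164 RPKM in the knockout, and TFEB lies at the bottom with a mean of 1.97 RPKM in the knockout and 2.21 RPKM in the wild type.

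The order of the levels was mostly kept between the groups (Spearman's rho 0.960 over the 34 genes, given as a description since the genes share libraries). PSAP was the most abundant in both groups, with 161 ± 5.57 RPKM in the knockout (SD, n = 2) and 82.6 ± 10.2 RPKM in the wild type (SD, n = 3). In the knockout LAMP2 came next (52.0 ± 4.42 RPKM), then PPT1 (40.2 ± 0.158), CTSZ (31.3 ± 0.701) and DPP7 (28.9 ± 0.945). In the wild type PPT1 (49.8 ± 3.63 RPKM) and DPP7 (46.9 ± 7.72) were next and did not differ beyond their spread, followed by LAMP2 (39.6 ± 2.52) and GLA (33.0 ± 4.79). CTSB stood at rank 8 in the knockout and rank 14 in the wild type, and TPP1 at rank 26 in the knockout and 31 in the wild type. GAA stood at rank 29 in the knockout and 21 in the wild type, and GLA at rank 10 in the knockout and 5 in the wild type.

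Several of these proteins work together, and for some pairs the ratio of their transcripts differed between the groups. Saposins serve as cofactors of GLA, ARSA and ASAH1. The PSAP to GLA ratio of RPKM was 8.59 and 9.15 in the knockout libraries, against 2.54, 2.404 and 2.59 in the wild type libraries. The PSAP to ASAH1 ratio was 10.99 and 9.78 in the knockout libraries, against 5.59, 5.50 and 5.37 in the wild type libraries. The PSAP to ARSA ratio was 35.8 and 36.9 in the knockout libraries, against 18.3, 28.1 and 26.2 in the wild type libraries. In each of these ratios the groups did not overlap, and each carries the rise of PSAP, so they are not separate results. The wild type values lay close together for GLA and ASAH1 and were wider apart for ARSA. CTSA, which protects NEU1 and GLB1 in a complex, had a ratio to NEU1 of 0.420 and 0.460 in the knockout libraries, against 0.714, 0.624 and 0.685 in the wild type libraries. Its ratio to GLB1 was 0.381 and 0.437 in the knockout libraries, against 0.592, 0.549 and 0.545 in the wild type libraries. The LAMP2 to LAMP1 ratio was 3.00 and 3.01 in the knockout libraries, against 1.88, 2.04 and 2.07 in the wild type libraries. For GM2A and its enzyme gene HEXA the ratio was 0.447 and 0.388 in the knockout libraries, against 0.357, 0.436 and 0.381 in the wild type libraries, and the groups overlapped. These pairs were picked with their fold changes known, so the ratios are descriptions with no test.

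Promoter sequences are shown for GAA, SMPD1, GLA and DPP7, the called genes with the smallest adjusted p for which a sequence was at hand, because lysosomal promoters are known for E-boxes that TFEB can bind. Each is from RefSeq (GRCh38.p14), reads 5′ to 3′ on the gene's strand, and holds 250 bases before and 50 bases after the annotated start. Capitals mark the E-box CACGTG, with the added bases where it is extended to TCACGTGA, or to the full palindrome that has a further G before and C after it and is known as the CLEAR element.
GAA (chr17:80101331-80101630, forward strand): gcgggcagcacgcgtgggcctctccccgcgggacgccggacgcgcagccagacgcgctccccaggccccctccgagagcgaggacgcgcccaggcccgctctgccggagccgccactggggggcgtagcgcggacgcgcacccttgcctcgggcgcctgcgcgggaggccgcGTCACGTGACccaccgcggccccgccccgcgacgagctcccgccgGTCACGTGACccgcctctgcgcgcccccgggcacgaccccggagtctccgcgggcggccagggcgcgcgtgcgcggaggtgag
DPP7 (chr9:137114684-137114983, reverse strand): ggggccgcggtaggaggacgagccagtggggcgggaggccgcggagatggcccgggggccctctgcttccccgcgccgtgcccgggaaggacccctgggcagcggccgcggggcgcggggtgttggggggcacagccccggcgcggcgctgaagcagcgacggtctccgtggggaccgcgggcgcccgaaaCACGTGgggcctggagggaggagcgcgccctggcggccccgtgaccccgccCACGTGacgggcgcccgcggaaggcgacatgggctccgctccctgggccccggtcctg
SMPD1 (chr11:6390224-6390523, forward strand): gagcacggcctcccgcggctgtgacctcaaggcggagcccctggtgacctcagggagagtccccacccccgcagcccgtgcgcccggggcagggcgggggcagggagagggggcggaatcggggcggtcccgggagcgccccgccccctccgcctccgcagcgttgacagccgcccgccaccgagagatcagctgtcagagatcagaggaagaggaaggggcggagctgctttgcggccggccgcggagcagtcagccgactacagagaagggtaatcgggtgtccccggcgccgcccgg
GLA (chrX:101407876-101408175, reverse strand): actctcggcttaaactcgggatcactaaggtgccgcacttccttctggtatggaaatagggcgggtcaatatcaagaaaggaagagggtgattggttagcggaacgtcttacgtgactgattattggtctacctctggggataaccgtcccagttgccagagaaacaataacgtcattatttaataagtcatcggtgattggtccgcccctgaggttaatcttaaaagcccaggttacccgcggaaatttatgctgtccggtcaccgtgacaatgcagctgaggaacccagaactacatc
GAA held 2 copies of the full palindrome, starting at positions -78 and -33 relative to the start, and DPP7 held 2 plain E-boxes at positions -59 and -8. The windows of SMPD1 and GLA held none of the 3 motifs, which says only that these letters are absent there.

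Over the 26 lysosomal genes matched to a promoter sequence, all but CTSB, ASAH1, LAMP2, PSAP, HEXA, NAGLU, SGSH and ARSA, 9 held CACGTG in at least 1 annotated promoter (34.6%), 5 held TCACGTGA (19.2%) and 3 held the full palindrome (11.5%). The motifs are nested, and each reads the same on both strands. Of the 8233 measured genes with a promoter sequence, 13.0% held CACGTG, 2.36% TCACGTGA and 0.935% the full palindrome, and of all 27305 genes of the promoter table, 8.77%, 1.18% and 0.421% held them. The median GC content was 69.5% in the lysosomal promoters and 65.3% in those of measured genes. CACGTG was found in 2 of the 4 genes that fell, GAA and DPP7, in 0 of the 2 genes that rose and had a sequence, TPP1 and SMPD1, and in 7 of the 20 uncalled genes. The uncalled genes with a match were LAMP1, MCOLN1, CTSA, CTSD, NEU1, ARSB and GALNS. LAMP1 had 6 matches between positions -192 and -2, and MCOLN1 had the full palindrome at position -16. A match is a description of the sequence and not evidence of binding.

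The 34 genes lay on 19 chromosomes, so most had no other member nearby. SMPD1 and TPP1, which both rose, lie 217765 bases apart on chromosome 11, and all 7 measured genes between them had positive log2 fold changes, of 0.11 to 0.50. TRIM3 (0.50, SE 0.16, adjusted p = 0.0485) and RRP8 (0.44, SE 0.11, adjusted p = 0.0222) were called among them. In the 1 Mb windows the sign was mixed: 12 of 16 neighbours of SMPD1 and 13 of 17 neighbours of TPP1 were positive, with 5 higher, 1 lower and a lowest value of -0.58 in each window, and the windows overlap. GAA and SGSH lie 86837 bases apart on chromosome 17 and differed in sign, and EIF4A3 between them fell (-0.45, SE 0.11, adjusted p = 0.0143). Within 1 Mb of GLA on the X chromosome, 8 of 11 other measured genes fell and 1 rose, with a median log2 fold change of -0.47. Within 1 Mb of PSAP, 4 of 10 neighbours rose and 8 had positive values (median 0.28). The neighbours of GAA (13 genes, 1 higher and 2 lower, median 0.06), DPP7 (42 genes, 5 higher and 2 lower, median 0.03), PPT1 (21 genes, 4 higher and 1 lower, median 0.03), CTSB (5 genes, 1 higher and 1 lower, median -0.09) and LAMP2 (16 genes, 1 higher and 1 lower, median -0.13) had medians nearer 0. The part of a gene's neighbourhood in its fold change was not tested, and these windows were set after the fold changes were seen.

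The wider lysosomal machinery was followed with 6 lists that hold none of the 34 genes. Their called shares ran from 17.6% for V-ATPase subunits to 37.5% for mannose 6-phosphate sorting, beside 29.7% of all genes tested. The sorting list also holds adaptor, retromer and endoplasmic reticulum genes. With a library left out, calls over all genes tested were fewest without knockout library 2 and most without wild type replicate 1. List counts from such fits are given below without that share beside them. Of 28 measured genes in the list of other hydrolases, 6 rose and 3 fell (median 0.00). This list also holds a sulfatase-modifying enzyme of the endoplasmic reticulum and a prenylcysteine oxidase, both uncalled and neither a hydrolase. PRCP, a carboxypeptidase, had 32.7 and 31.1 RPKM in the knockout libraries, against 17.3, 19.3 and 18.8 RPKM in the wild type libraries (log2 fold change 0.79, SE 0.09). CPQ, a plasma glutamate carboxypeptidase (1.23, SE 0.16), and the heparanase gene HPSE (0.61, SE 0.13) also rose. The sialate esterase gene SIAE (-1.26, SE 0.14) and the aspartylglucosaminidase gene AGA (-0.99, SE 0.15) fell. HPSE lost its call without knockout library 2 (0.61) or 3 (0.61), and the other 4 named genes stayed called with any single library left out. Without knockout library 2, and likewise without library 3, 2 of the list were higher and 3 lower, and without wild type replicate 1, 6 were higher and 9 lower.

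Other lysosomal membrane proteins had 4 of 28 measured members higher and 1 lower (median 0.08). The risers with the smallest adjusted p were GPR137B, a regulator of Rag GTPases at the lysosome (log2 fold change 0.88, SE 0.15), TMEM55A, a phosphoinositide phosphatase (0.82, SE 0.15), and SLC17A5, the sialic acid exporter (0.44, SE 0.12). LMBRD1, needed for release of cobalamin, fell (-0.46, SE 0.14). None of the 4 kept its call in all fits with a library left out: without knockout library 2 GPR137B was at 0.68, TMEM55A at 0.69, SLC17A5 at 0.35 and LMBRD1 at -0.51, and SLC17A5 and LMBRD1 were also lost without knockout library 3 (0.53 and -0.41) and wild type 3 (0.41 and -0.38), and LMBRD1 without wild type replicate 2 (-0.44). Counts of higher members were 7 without wild type replicate 1, 2 without wild type replicate 3, 2 without knockout library 3 and 0 without knockout library 2. Those of lower members were 2 without wild type replicate 1 and 0 without any other single library.

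V-ATPase subunits, the proton pump that acidifies the lysosome, had 1 of 17 measured members higher and 2 lower (median -0.11). ATP6V0D1 fell (log2 fold change -0.58, SE 0.11), as did ATP6V0B (-0.44, SE 0.11), both of the membrane sector, and the accessory subunit gene ATP6AP2 rose (0.31, SE 0.10). ATP6V0D1 lost its call without knockout library 2 (-0.50). ATP6V0B lost it without knockout library 2 (-0.42) or 3 (-0.46) or wild type replicate 3 (-0.44). ATP6AP2 lost it without those (0.26, 0.36 and 0.34) and without wild type replicate 1 (0.24). Lower members numbered 4 without wild type replicate 1, 1 without wild type replicate 3, 1 without knockout library 3 and 0 without knockout library 2, while higher members numbered 0 in edgeR with wild type replicate 3 or either knockout library left out.

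Genes of mannose 6-phosphate tagging and sorting had 6 of 24 measured members higher and 3 lower (median -0.11). The tagging genes GNPTAB (log2 fold change -0.21, SE 0.09), GNPTG (-0.34, SE 0.15) and NAGPA (-0.43, SE 0.21) were not called. Nor were the mannose 6-phosphate receptor genes M6PR (-0.16, SE 0.12) and IGF2R (0.46, SE 0.16). SORL1, a sorting receptor, had 13.2 and 11.3 RPKM in the knockout libraries, against 5.19, 4.30 and 5.12 RPKM in the wild type libraries (log2 fold change 1.33, SE 0.12). CLN8, which helps carry enzymes out of the endoplasmic reticulum (0.77, SE 0.14), and AP1S2, an adaptor subunit (0.37, SE 0.10), also rose. The retromer subunits VPS35 (-0.61, SE 0.10) and VPS26A (-0.35, SE 0.10) fell, as did CLN6, the partner of CLN8 (-0.46, SE 0.10). Without wild type replicate 1 the list had 9 members higher and 4 lower. SORL1 and VPS35 stayed called with any single library left out. CLN8 was not called without knockout library 3 (0.69), CLN6 without knockout library 2 (-0.43) or 3 (-0.50), AP1S2 without these (0.31 and 0.43) or wild type replicate 3 (0.37), and VPS26A without these (-0.32, -0.38 and -0.33). The list had 3 members higher without wild type replicate 2, 2 without wild type replicate 3, 2 without knockout library 2 and 1 without knockout library 3. Lower members numbered 1 without either knockout library.

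TFE factors and the mTORC1 machinery at the lysosome had 4 of 24 measured members higher and 1 lower (median -0.02). FLCN (log2 fold change 0.60, SE 0.12) and its partner FNIP1 (0.58, SE 0.12), which act on the Rag GTPases, rose, and so did DEPTOR, an inhibitor in mTOR complexes (0.63, SE 0.16). RRAGD, a Rag GTPase, had 16.2 and 14.5 RPKM in the knockout libraries, against 22.7, 26.2 and 27.0 RPKM in the wild type libraries (-0.72, SE 0.11), and it stayed called with any single library left out. FLCN was not called without knockout library 2 (0.51), FNIP1 without knockout library 3 (0.49), and DEPTOR without knockout library 2 (0.41) or wild type replicate 3 (0.61). With a library left out, higher members were 7 without wild type replicate 1, 2 without wild type replicate 3, 1 without knockout library 2 and 2 without knockout library 3, and lower ones were 3 without wild type replicate 1.

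Autophagy genes had 8 of 31 measured members higher and 1 lower, with a median log2 fold change of 0.18. The called members were 29.03% of the list, beside 29.7% of all genes tested, of which 14.9% rose and 14.8% fell. OPTN, an autophagy receptor, had 14.02 and 14.6 RPKM in the knockout libraries, against 7.93, 8.74 and 8.19 RPKM in the wild type libraries (0.79, SE 0.11). GABARAPL1, a ubiquitin-like protein of the autophagosome (0.84, SE 0.13), and WIPI1, a phosphoinositide-binding protein (1.09, SE 0.17), rose too, and these 3 stayed called with any single library left out. ATG10, an enzyme of ATG12 conjugation, fell (-0.74, SE 0.15) and was not called without knockout library 3 (-0.63). Higher members were 13 without wild type replicate 1, 5 without wild type replicate 3, 3 without knockout library 2 and 5 without knockout library 3, and ATG10 was the 1 lower member lost when knockout library 3 was left out, while 2 were lower without wild type replicate 1.

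**Figure D4:**
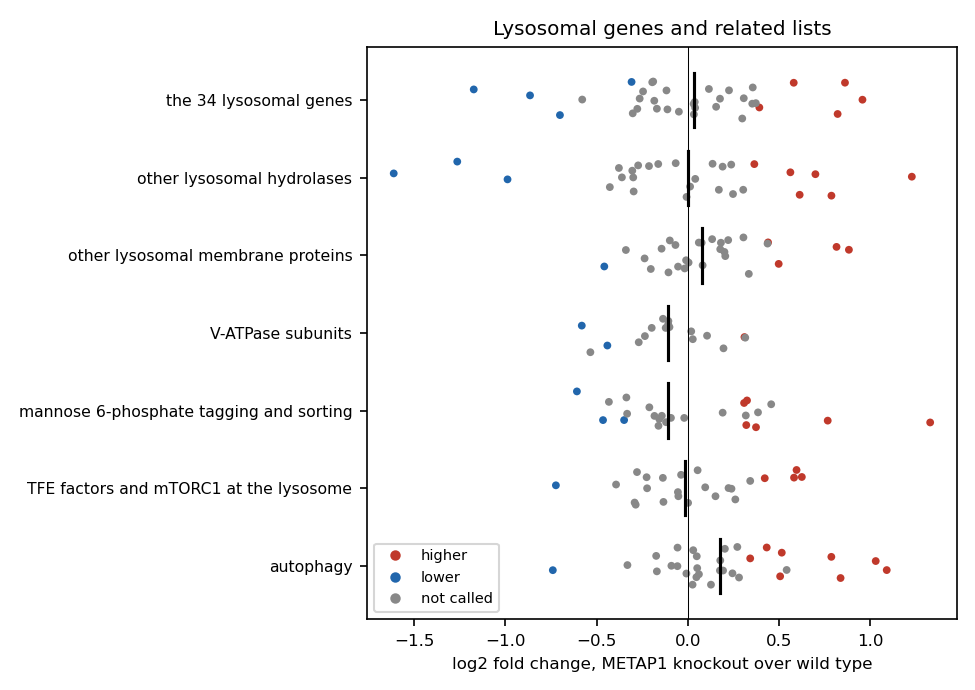
Log2 fold change (METAP1 knockout over wild type) of every measured gene in the set of 34 lysosomal genes and in the 6 related lists, with genes that rose in red, genes that fell in blue, other genes in grey, and the median of each list as a black bar. The medians run from -0.11 for V-ATPase subunits and mannose 6-phosphate sorting to 0.18 for autophagy, and SORL1 has the highest value of these lists, at 1.33.

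Markers of other cell types moved between the groups, and their part in the lysosomal results was not tested. Of 3 measured epithelial markers (6 listed), KRT8 and KRT18 rose and EPCAM was not called. The summed RPKM of all 3 was 38.8 and 42.9 in the knockout libraries, against 18.0 to 20.9 in the wild type libraries. Of 4 measured fibroblast and mesenchymal markers (11 listed), S100A4 and FN1 rose and PDGFRA and VIM were not called. COL1A1, COL1A2 and DCN are not analysed here. All 4 measured mesenchymal markers together summed to 134 and 136 RPKM in the knockout libraries, against 95.3 to 113 RPKM in the wild type libraries. All 3 measured neural markers (5 listed), NES, SOX2 and MAP2, rose, with sums of 579 and 478 RPKM in the knockout libraries, against 233 to 328 RPKM in the wild type libraries. The 2 haematopoietic markers summed to 11.8 and 9.97 RPKM in the knockout libraries, against 9.94 to 11.6 RPKM in the wild type libraries, with KIT higher and GATA2 not called. The 10 macrophage markers, of a cell type rich in lysosomes, were not among the genes of the table and are not analysed here.

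**Figure D5:**
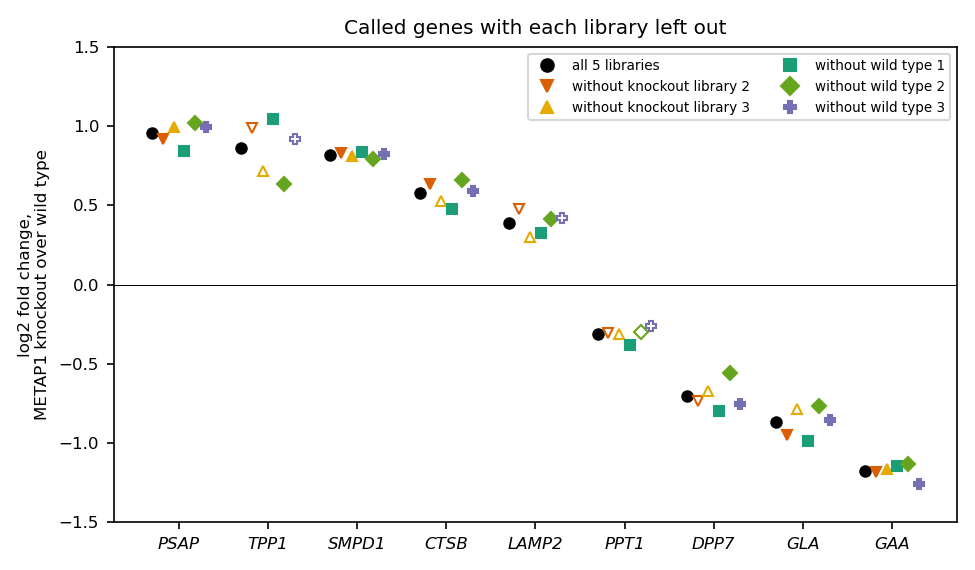
Log2 fold change (METAP1 knockout over wild type) of the 9 called lysosomal genes with all 5 libraries and with each library left out, where filled symbols have an adjusted p under 0.05 and open symbols do not. PSAP, SMPD1 and GAA stay filled throughout, and no symbol crosses 0.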

How the data were processed

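Ribosome-depleted, stranded libraries were sequenced with single-end reads, per the labels' protocols. Per the submitters' processing notes, STAR 2.4.0i, HTSeq and DESeq2 were used, with GRCh37 and hg19 named as builds and no roles given. The authors deposited a table with raw read counts per library, gene lengths, a mean signal, and their own comparison as log2 fold changes, a test score and p-values, per the file headers. A further 5 columns of per-library values were not used. The knockout columns are numbered 2 and 3 and the titles 1 and 2, so neither was tied to a title.

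Counts were tested with edgeR 4.0.16 in R 4.3.3: filterByExpr (6 genes removed), TMM, robust dispersions, and a 2-sided quasi-likelihood F-test over the 5 libraries with no covariate and 3 residual degrees of freedom. Standard errors come from the fold change and F statistic. Every pair of libraries differed beyond sampling noise (chi-square per degree of freedom from 10.1 to 34.9 within groups). The steps were tested on simulated data. DESeq2 1.42.0, limma-voom (limma 3.58.1), other scalings and filters, a replicate block, removal of the gene length trend (lowess, span 0.3) and each library left out were the alternatives. Genes were named by rule: all 34, with values per library for called ones, TFEB, MCOLN1 and LAMP1, and up to 3 called genes in each direction per related list, of which 1 is not reported here. The tagging and receptor genes of the sorting list were named in addition. Members, lists and rule were chosen with earlier results of these data known. Positions are from GENCODE 29 (GRCh38) by Ensembl identifier, and none was converted between builds. Depths are column sums of the table, and gene counts of 54 to 6588 reads per library set the precision.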

Additional observations from a re-analysis of the deposited data

How the results depend on the processing

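With a library left out, 2 to 7 of the 34 genes were called higher and 1 to 6 lower, and the transcriptome had 1179 (without knockout library 2) to 4591 calls (without wild type replicate 1), against 3150. The higher count was 3 without wild type replicate 3 or knockout library 2 and 2 without knockout library 3, and the lower count was 2 without knockout library 2 and 1 without library 3. The median of the 34 log2 fold changes then ran from -0.047 to 0.063. METAP1 ran from -1.65 to -1.36. Changing size factors, filter, tool or the length trend kept 5 of the 34 called higher and 3 or 4 lower. In those same settings the 5 risers, GAA, GLA and DPP7 kept their calls. Genes near 0 changed sign with a library left out: NPC2 (-0.036 to 0.195), GM2A (-0.030 to 0.096), ASAH1 (-0.085 to 0.100), CTSZ (-0.015 to 0.070), CTSD (-0.039 to 0.070), HEXA (-0.130 to 0.027) and METAP1D (-0.049 to 0.137). ASAH1 was -0.015 with the length trend removed. The cause was not tested. With the length trend removed, lower members numbered 5 of the other hydrolases, 4 of the V-ATPase list, 5 of the sorting list and 0 of the other membrane proteins. A replicate block by column number, in which wild type replicate 1 has no partner, gave 7 higher and 4 lower of the 34, 4356 calls in all, a median of -0.035, and IDS and SGSH as added calls. It put NPC2 at -0.024, GM2A at -0.014, ASAH1 at -0.072 and CTSZ at -0.00024. Between libraries of the same column number, deviations from the group means correlated at 0.032 for number 2 and -0.0025 for number 3. With 2 knockout libraries, their deviations mirror each other, so these values are not independent and cannot decide whether libraries were paired. With a single knockout library left, its spread is assumed to equal that of the wild type.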
